A study of Mus musculus with 4 samples.

Results

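Lpl/Cst7 disease-associated microglia were described here in single-cell RNA sequencing of CD11b+ myeloid cells from the mouse brain. Members were chosen by measured values. A cell was a member when at least 2 of the 4 microglia identity genes Sall1, Siglech, P2ry12 and Tmem119 were detected and Lpl and Cst7 together held at least 10 of every 10000 unique molecular identifiers (UMIs, counts of captured RNA molecules). Members also had no Cd5l UMI, fewer than 100 Lyz2 UMIs per 10000, fewer than 4 of 6 interferon-induced genes and fewer than 3 of 6 cycling genes. This gave 528 members among 8018 analysed cells, of which 6445 carried at least 2 identity genes. Because the levels of these genes chose the cells, their levels in members are a description and not a result.

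The study compared 4 libraries with 1 mouse each. The genotype label was IL-6 wild type (+/+) or knockout (-/-), and each genotype had a sham-operated mouse and a mouse with cerebrovascular injury (CVI), both taken at day 6. Mice were 8 to 12 weeks old, injury was made by low-intensity pulsed ultrasound over a thinned skull with circulating microspheres, and CD11b+ cells were taken with beads from a 4 mm punch. The labels do not say whether the milder or the more severe form of the injury was used, and the controls are called sham-operated in one field and uninjured in another. The targeted part of Il6 is not named, so the libraries are called knockout-labelled. There is no second mouse in any group: every interval below covers counting error at 95% and not the spread between mice, no test was possible, and a difference between libraries cannot be told apart from a difference between 2 animals.

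Microglia are the resident macrophages of the brain. In models of neurodegeneration, demyelination and injury some of them lose part of their homeostatic expression and take up a lipid-handling, lysosomal and phagocytic programme, for which Trem2 signalling is known to be needed in part. Lpl and Cst7 are among the genes most used to recognise this disease-associated state.

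Depth supports the summed levels well in the injured libraries and poorly in the sham ones. Libraries held 15222380 to 40336067 UMIs in 2682 to 4731 barcodes. Members of the injured libraries held 2995655 UMIs (wild type) and 3791832 UMIs (knockout-labelled), against 75663 and 73503 in the 4 members of each sham library. Members were deeper than microglia below the Lpl and Cst7 limit, with median UMIs of 12915 against 7444 in the injured wild-type library and 13104 against 8203 in the injured knockout-labelled one. Between the sham libraries 135 barcodes were shared, 23 of them analysed in both, which touches 3 of the 8 sham members; other pairs of libraries shared 2 to 14 barcodes.

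Il6, the gene that the knockout should remove, was counted in members of both injured libraries. It held 45 UMIs in 14 of 236 wild-type members (15.02 CPM, counts scaled to a total of 1000000 UMIs; interval 11.0 to 20.1) and 113 UMIs in 42 of 284 knockout-labelled members (29.8 CPM, 24.6 to 35.8). The 3′ tags need not lie in the deleted part, so this checks nothing about the genotype. In endothelial cells Il6 had 0 UMIs in 75 cells of the injured wild-type library and 34 UMIs in 16 of 126 cells of the injured knockout-labelled one.

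Members made up 0.512% (0.140 to 1.31) of microglia with at least 2 identity genes in the wild-type sham library, 4 of 781 cells. In the injured wild-type library they were 10.6% (9.32 to 11.9), 236 of 2235. The knockout-labelled sham library had 0.335% (0.0914 to 0.856), 4 of 1193, and the injured knockout-labelled library 12.7% (11.3 to 14.2), 284 of 2236. Both injured libraries thus lay far above both sham libraries, and the intervals of the injured libraries overlapped each other. Of all analysed cells, members were 0.403%, 7.88% (6.94 to 8.90), 0.287% and 10.8% (9.61 to 12.0) in the same order. Here the intervals of the injured libraries did not overlap. However, microglia with at least 2 identity genes were 74.6% of analysed cells in the injured wild-type library and 84.8% in the injured knockout-labelled one. Against microglia that failed only the Lpl and Cst7 limit, the order was the other way. There, 236 wild-type members stood beside 1164 such cells and 284 knockout-labelled members beside 1599. Leaving out barcodes shared between libraries gave 0.221%, 7.86%, 0.227% and 10.8%, with 2 and 3 members in the sham libraries.

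Among microglia with at least 2 identity genes, the order of the injured libraries turned with the limits on other genes. Cells left out by these limits stayed in the total. Before those limits, 431 of 2235 microglia were Lpl/Cst7-high in the injured wild-type library (19.3%, 17.7 to 21.0) and 386 of 2236 in the injured knockout-labelled one (17.3%, 15.7 to 18.9). Of all analysed cells, Lpl/Cst7-high microglia were 14.4% (13.1 to 15.7) and 14.6% (13.3 to 16.0), so with that total the order did not turn. Cd5l, which encodes a secreted scavenger-receptor protein of macrophages, was the limit that differed most between the injured libraries. It was detected in 119 of the 431 wild-type cells (27.6%, 23.4 to 32.1) and in 30 of the 386 knockout-labelled cells (7.77%, 5.30 to 10.9). In endothelial cells Cd5l was detected in 5 of 75 (median 4462 UMIs) and 0 of 126 (median 4273.5 UMIs). Each cell was counted under a single limit, with Cd5l read before the others. So counted, interferon-gene cells were 11.8% and 12.2% of the Lpl/Cst7-high cells and cycling cells 5.34% and 5.96%. The Lyz2 limit held 2 cells in each library, which leaves out cells over it that were counted under another limit. Members were 54.8% (49.9 to 59.5) of the Lpl/Cst7-high cells in the injured wild-type library and 73.6% in the injured knockout-labelled one.

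**Figure D1:**
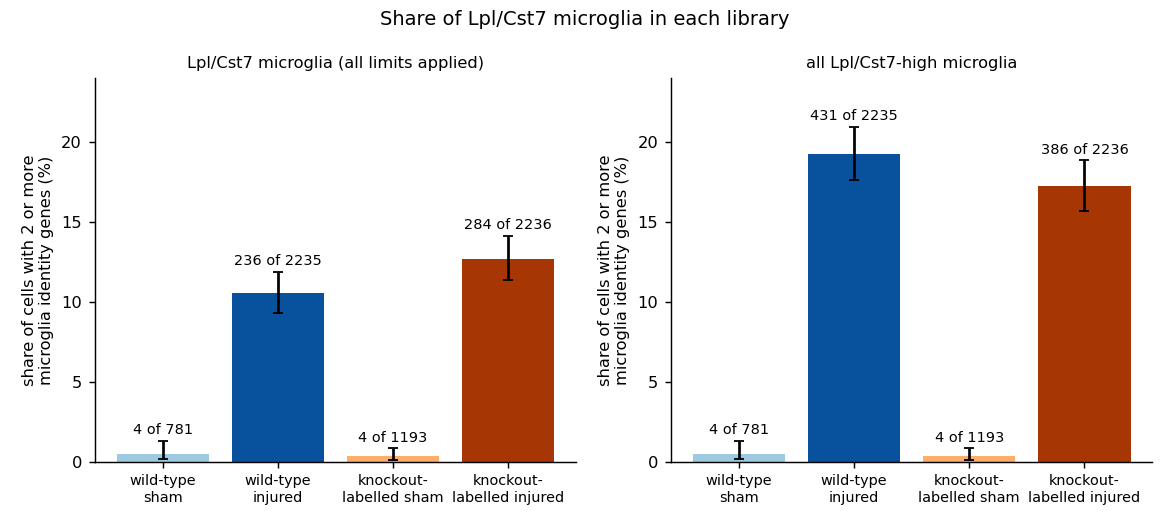
Share of cells with at least 2 identity genes (bars, %, axis from 0) that were members (left) or Lpl/Cst7-high before the limits on Cd5l, Lyz2, interferon and cycling genes (right), by library, with exact binomial 95% intervals for counting error and cell numbers above each bar. On the left the injured knockout-labelled bar (12.7%) is above the injured wild-type bar (10.6%), on the right the order is the other way (17.3% and 19.3%), and both sham bars stay below 0.6%.

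The summed Lpl and Cst7 level had no gap at the limit. Among microglia passing the other limits, 225 wild-type and 205 knockout-labelled cells of the injured libraries lay just outside, at 5 to 10 per 10000, and 101 and 109 just inside, at 10 to 15. At 20 and over there were 78 and 121 cells. From just outside to just inside, the summed level of Lpl went from 309.5 to 622.0 CPM and that of P2ry12, a receptor for nucleotides and a homeostatic marker, from 710.4 to 571.2 CPM in the wild-type library. In the knockout-labelled library the same steps were 248.1 to 541.5 CPM and 1072 to 730.9 CPM.

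**Figure D2:**
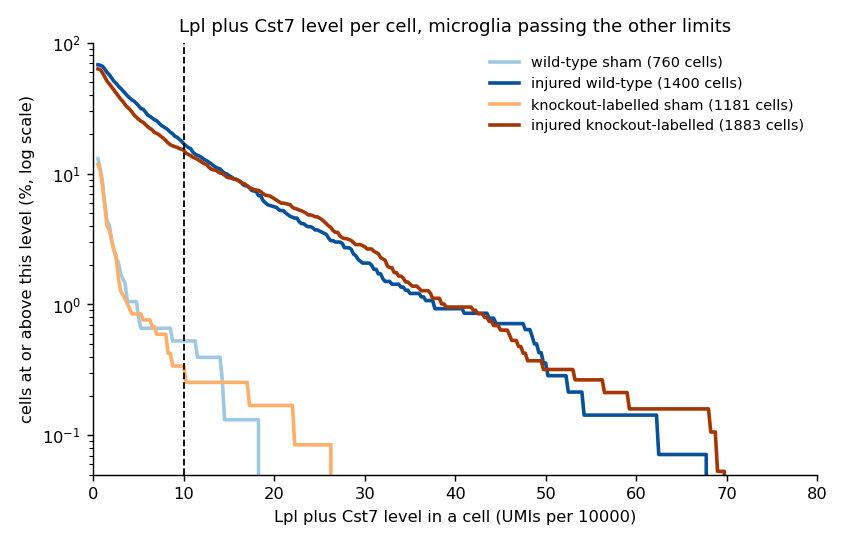
Percentage of microglia passing the other limits (vertical, log scale) whose summed Lpl and Cst7 level reached the value on the horizontal axis (UMIs per 10000), 1 line per library, with the limit of 10 dashed. The injured libraries decline smoothly through the limit, with the wild-type line above the knockout-labelled one at 5 and below it at 20, and the sham lines lie below 1% at the limit.

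Lpl encodes lipoprotein lipase, which releases fatty acids from triglycerides. Its level per member ran from 0 through a median of 8.88 to 61.2 UMIs per 10000 in the injured wild-type library and from 0 through 8.12 to 65.5 in the injured knockout-labelled one. Summed, members held 1126 CPM (1089 to 1165) and 1258 CPM (1223 to 1295), against 129.1 and 82.3 CPM in Lpl/Cst7-low microglia, the cells that pass every other limit. Sham Lpl/Cst7-low microglia had 14.3 CPM (wild type) and 18.9 CPM (knockout-labelled). Lpl in endothelial cells was 14.1 and 8.58 CPM in the injured libraries.

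Cst7 encodes cystatin F, an inhibitor of lysosomal cysteine proteases. Its level ran from 0 through a median of 7.60 to 40.1 UMIs per 10000 in wild-type members after injury and from 0 through 9.21 to 43.2 in knockout-labelled ones. The summed levels were 808.5 CPM (776.6 to 841.4) and 917.5 CPM (887.3 to 948.5) in members and 177.2 and 151.6 CPM in Lpl/Cst7-low microglia. Sham Lpl/Cst7-low microglia had 6.798 and 7.34 CPM. As the rule adds both genes, a member need not hold both: after thinning each cell to 3000 UMIs, both were detected in 140 of 226 wild-type members (61.9%, 55.3 to 68.3) and 169 of 266 knockout-labelled members (63.5%, 57.4 to 69.3). At full depth these shares were 85.6% and 86.6%, with 10 and 18 cells too shallow to thin. Thinned endothelial cells held both in 0 of 55 and 0 of 98 cells.

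Ch25h, a marker that the rule did not read, encodes cholesterol 25-hydroxylase, which makes an oxysterol that acts on immune cells. Thinned to 3000 UMIs, it was detected in 27.0% (21.3 to 33.3) of wild-type and 18.8% (14.3 to 24.02) of knockout-labelled members, and in 9.09% and 3.06% of endothelial cells of the same libraries. At full depth the shares of members were 48.3% and 36.3%. Its summed level was 153.6 CPM (139.8 to 168.3) in wild-type and 122.9 CPM (112.0 to 134.6) in knockout-labelled members, against 16.6 and 10.1 CPM in Lpl/Cst7-low microglia and 40.3 and 7.15 CPM in endothelial cells. In sham Lpl/Cst7-low microglia it was 0.906 and 0.256 CPM.

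Csf1, the other such marker, encodes colony-stimulating factor 1, a ligand of the receptor Csf1r on which microglia depend for survival. Thinned, it was detected in 44.2% (37.7 to 51.0) of wild-type and 44.0% (37.9 to 50.2) of knockout-labelled members, and in 18.2% and 10.2% of endothelial cells. Summed levels were 306.8 CPM (287.3 to 327.3) and 340.2 CPM (321.9 to 359.3) in members, 165.1 and 125.5 CPM in Lpl/Cst7-low microglia, and 24.5 and 29.3 CPM in sham Lpl/Cst7-low microglia. In the injured libraries all 4 markers were thus as the label of the cells has them. Lpl and Cst7 were high by the rule itself, and Ch25h and Csf1 were above Lpl/Cst7-low microglia and above endothelial cells. In the few sham members Csf1 was 185.0 CPM (wild type) and 68.0 CPM (knockout-labelled). Endothelial cells of the sham libraries held 18.9 and 145.7 CPM.

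The promoters of the marker genes in the RefSeq table for GRCm38.p6, 250 bases before to 50 bases after each start, are shown because these genes mark the state, Cst7 by the rule and Ch25h and Csf1 as markers. No entry is printed for Lpl. Capitals mark matches to any of 5 motifs searched on both strands: AP-1 as TGANTCA, an E-box as CACGTG, the PU.1 core as GAGGAAG, C/EBP as TTGCNNAA and the NF-kB consensus. Cst7 is at chr2:150570165-150570464 on the + strand, Ch25h at chr19:34475099-34475398 on the - strand and Csf1 at chr3:107760420-107760719 on the - strand, each written along its gene.
Cst7: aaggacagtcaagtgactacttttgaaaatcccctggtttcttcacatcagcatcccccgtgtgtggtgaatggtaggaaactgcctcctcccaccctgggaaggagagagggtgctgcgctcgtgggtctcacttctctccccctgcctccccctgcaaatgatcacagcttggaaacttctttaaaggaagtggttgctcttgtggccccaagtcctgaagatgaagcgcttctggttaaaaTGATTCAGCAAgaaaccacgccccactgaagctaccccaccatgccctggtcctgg
Ch25h: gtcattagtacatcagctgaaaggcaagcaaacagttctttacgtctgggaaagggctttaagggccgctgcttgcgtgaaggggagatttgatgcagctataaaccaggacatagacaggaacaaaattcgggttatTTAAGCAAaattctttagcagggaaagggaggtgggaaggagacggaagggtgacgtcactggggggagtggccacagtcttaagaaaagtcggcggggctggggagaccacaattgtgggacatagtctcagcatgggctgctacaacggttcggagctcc
Csf1: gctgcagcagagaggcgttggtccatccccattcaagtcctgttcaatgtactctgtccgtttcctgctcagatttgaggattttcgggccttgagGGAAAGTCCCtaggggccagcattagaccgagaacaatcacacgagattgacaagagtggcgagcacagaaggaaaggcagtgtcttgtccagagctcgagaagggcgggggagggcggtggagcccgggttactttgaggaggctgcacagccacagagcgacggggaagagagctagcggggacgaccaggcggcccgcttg
In Cst7 the AP-1 letters TGATTCA, first base at -6 from the start, overlapped the reverse-strand C/EBP letters TTCAGCAA, first base at -3. Ch25h held the C/EBP letters TTAAGCAA at -112 and Csf1 the NF-kB letters GGAAAGTCCC at -154, both on the reverse strand. Among 32851 promoters in the table, 7.81% held AP-1, 7.15% the E-box, 13.6% the PU.1 core, 0.411% NF-kB and 10.8% C/EBP letters. These matches describe letters in the window and show no binding.

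The marker lists describe the members beside the rule, which asks for 2 identity genes and limits Lyz2. All 8 microglia markers were detected in both injured libraries, summing to 13188 and 14094 CPM against 14528 and 16736 CPM in Lpl/Cst7-low microglia. Of the 9 monocyte or macrophage markers, 7 and 8 were detected at 2172 and 1814 CPM, above 1786 and 1139 CPM in Lpl/Cst7-low microglia, and Lyz2 alone gave 2127 and 1794 CPM; Ly6c2 was at 0 in both, and Plac8 was also at 0 in the wild-type members. Border-associated macrophage markers summed to 103.5 CPM in wild-type and 28.0 CPM in knockout-labelled members, with Cd163 and Lyve1 at 0 in both, and to 108.2 and 68.0 CPM in Lpl/Cst7-low microglia. Neutrophil markers summed to 129.5 and 154.0 CPM, nearly all of it Csf3r, with Ly6g and Retnlg at 0. Dendritic cell markers summed to 297.4 and 384.0 CPM, of which Siglech, also a microglia identity gene, gave 295.4 and 380.8 CPM. B cell markers summed to 141.2 and 170.4 CPM, most of it Ighm, with Ms4a1 at 0. T or NK cell markers were at most 1.58 CPM and erythrocyte markers at most 0.334 CPM. Endothelial markers summed to 12.0 and 22.2 CPM, mural or fibroblast markers to 2.00 and 0.527 CPM, astrocyte markers to 75.8 and 111.0 CPM, oligodendrocyte markers to 102.1 and 136.6 CPM, and neuron markers to 14.4 and 16.6 CPM.

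The 8 sham members were too few to compare with injured ones, and they differed from each other. In the wild-type sham library, cell 1 (9866 UMIs) held 3 Lpl and 11 Cst7 UMIs, and cell 2 (11515 UMIs) held 13 Lpl and 0 Cst7. Cells 3 and 4 carry barcodes shared with the other sham library; they held 51 and 38 Lpl UMIs with 0 Cst7. Cell 4 also had 679 Apoe, 24 Mrc1, 19 Ms4a7 and 14 Pf4 UMIs, which are genes of border-associated and other macrophages, beside 2 P2ry12 UMIs and no Tmem119. In the knockout-labelled sham library, cell 1, with a shared barcode, held 52 Lpl, 5 Cst7, 1429 Apoe and 104 Spp1 UMIs. Cells 2 and 3 held 34 and 56 Lpl UMIs without Cst7, and cell 3 alone had 17 Ch25h UMIs. Cell 4 (1961 UMIs) was a member on 1 Lpl and 1 Cst7 UMI. Lpl without Cst7 was thus found in 5 of the 8 cells.

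Within each injured library, members were set beside Lpl/Cst7-low microglia to describe the state. This is the contrast that the rule itself made, so the ratios below are a description. Genes were considered with at least 20 CPM on 1 side and 50 UMIs over both, and called at a 2-fold difference after adding 10 CPM to both sides. In the injured wild-type library members had 45 of 5485 genes 2-fold or more up (0.82%) and 37 down by as much (0.675%). In the injured knockout-labelled library 76 of 5557 were up (1.37%) and 36 down (0.648%). In both libraries 40 of 5330 genes were higher (0.75%) and 19 lower (0.356%). Scaling by median-of-ratios factors, which took the median log2 ratio of all genes from -0.06 and -0.07 to 0.03 in both, gave 56 higher and 24 lower in the wild-type library (70.0% higher, against 54.9%) and 104 and 24 in the knockout-labelled one (81.3% against 67.9%). Members are deeper than the cells beside them, and with every cell thinned to 3000 UMIs the counts were 66 higher and 74 lower in the wild-type library and 82 and 74 in the knockout-labelled one.

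Among the 12 leading higher genes were several secreted factors. Spp1, encoding osteopontin, an adhesive matrix protein and cytokine, was 4105 CPM (4032 to 4178) in wild-type members and 1136 CPM (1114 to 1157) in the Lpl/Cst7-low microglia beside them, a ratio of 3.61 (3.52 to 3.71). Of the 10819 Spp1 UMIs in those Lpl/Cst7-low cells, 2488 came from 1 cell. In the knockout-labelled library Spp1 was 2150 CPM (2104 to 2197) against 101.3 CPM (96.1 to 106.7), a ratio of 21.2 (20.1 to 22.5). Igf1, an insulin-like growth factor, was 282.7 against 99.8 CPM in the wild-type library (ratio 2.83, 2.58 to 3.11) and 203.6 against 23.96 CPM in the knockout-labelled one (ratio 8.50, 7.46 to 9.69). Fn1, encoding fibronectin, was 110.2 against 13.4 CPM and 52.7 against 2.93 CPM, but endothelial cells of the same libraries held 735.6 and 783.5 CPM. The chemokine gene Ccl6 was 582.5 against 172.9 CPM and 864.5 against 209.6 CPM.

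The others included lipid, cytoskeletal and receptor genes. Ch25h had log2 ratios of 2.62 (wild type), the highest of the 12 there, and 2.73 (knockout-labelled). Fabp5, a fatty acid carrier, was 438.3 against 203.0 CPM and 317.0 against 56.4 CPM, and Lgals3, encoding galectin-3, was 240.3 against 92.8 CPM and 228.4 against 29.3 CPM. When cells with Cd5l or high Lyz2 were let in on both sides, an alternative added after seeing the data, both genes turned to lower in the wild-type library, with log2 ratios of -0.72 for Fabp5 and -0.080 for Lgals3. Capg, an actin-capping protein, had log2 ratios of 1.83 and 2.13, and Lilrb4a, an inhibitory receptor, 1.57 and 2.24. Baiap2l2, a membrane-curving adaptor, had 1.71 and 1.85, Fam20c, a kinase of secreted proteins, 1.61 and 1.95, and Rab7b, a late-endosomal GTPase, 1.32 and 2.01.

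Among the 12 leading lower genes were several homeostatic markers. Crybb1, a crystallin gene of the homeostatic list, was 105.5 CPM in wild-type members against 307.5 CPM, a ratio of 0.343 (0.305 to 0.385). In the knockout-labelled library it was 79.9 against 326.8 CPM, a ratio of 0.244 (0.217 to 0.275). Adgrg1, an adhesion receptor, was 55.1 against 157.7 CPM and 65.7 against 204.9 CPM. Slc2a5, a fructose transporter, was 38.7 against 93.7 CPM and 46.4 against 143.6 CPM. Both genes were higher still in sham Lpl/Cst7-low microglia, at 275.2 and 290.0 CPM for Adgrg1 and 264.8 and 300.03 CPM for Slc2a5. The lectin receptors Clec4a2 and Clec4a3 had log2 ratios of -1.56 and -1.26, and -1.22 and -1.43. Lst1 (-1.30 and -1.28), Col27a1, a collagen (-1.07 and -1.34), Serpinf1, a secreted serpin (-1.32 and -1.08), Eef2k, a kinase that slows translation (-1.21 and -1.12), and Ly6a, a surface protein also of endothelium (-1.22 and -1.54), were also among them, as was H2-Eb1. That MHC class II gene was 34.1 against 91.2 CPM in the wild-type library, but with at least 3 of 4 identity genes required its log2 ratio turned from -1.20 to 0.46.

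**Figure D3:**
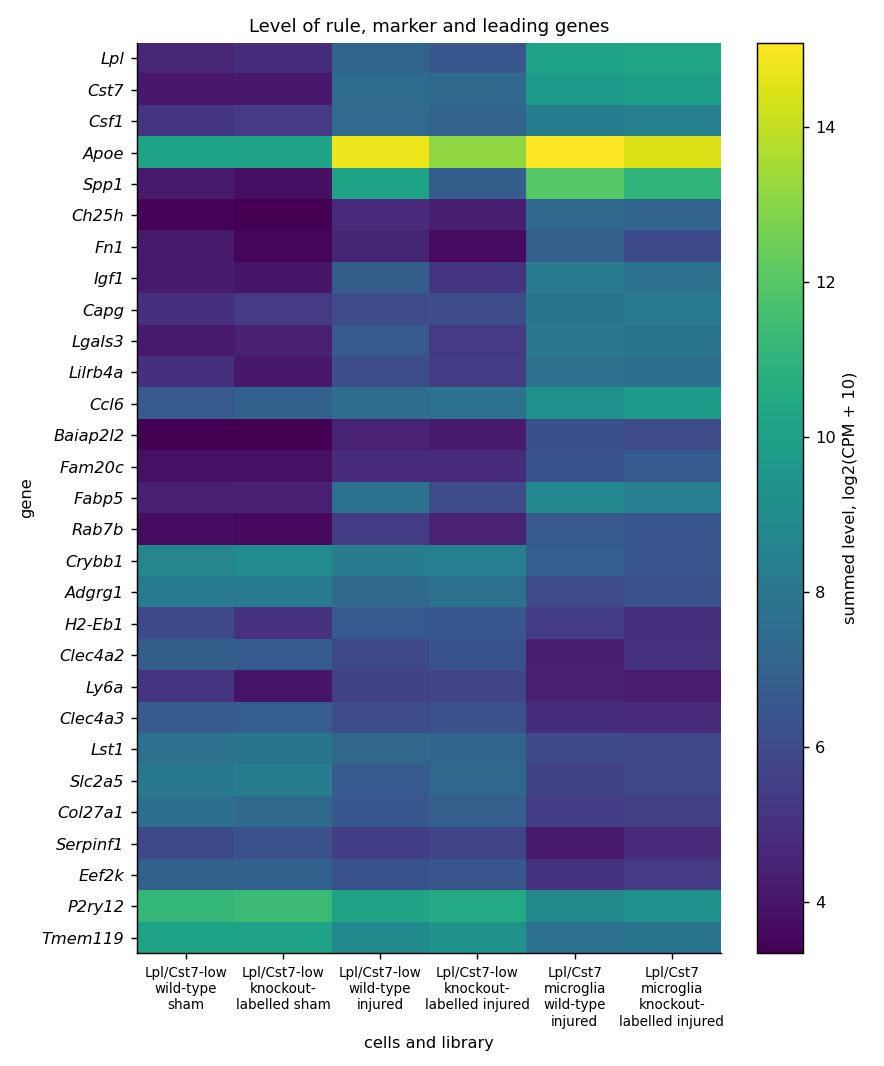
Summed level, log2(CPM + 10), of rule, marker and leading genes (rows) in Lpl/Cst7-low microglia of the 4 libraries and in members of the 2 injured libraries (columns). Spp1 runs from 8.16 and 4.18 CPM in sham Lpl/Cst7-low microglia to 4105 and 2150 CPM in members, and the lower block, from Crybb1 to Tmem119, is lower in each member column than in the Lpl/Cst7-low column of its library, while H2-Eb1 and Ly6a are also low in knockout-labelled sham cells.

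Gene lists of known states were read at 1.5-fold, where the wild-type library had 3.41% of all genes up and 5.07% down, and the knockout-labelled library 4.17% up and 5.4% down. Of 29 late disease-associated genes beyond the rule genes, 18 (wild type) and 23 (knockout-labelled) were higher and 0 lower, with medians of 0.76 and 0.90; Axl, a receptor for apoptotic cells, was 108.2 against 56.4 CPM and 173.8 against 63.95 CPM. Of 8 early genes, 2 and 4 were higher and 0 lower (medians 0.36 and 0.58). The Trem2 adaptor Tyrobp was 4981 against 3468 CPM and 4924 against 3263 CPM, and Apoe, the lipid-carrying apolipoprotein E, had log2 ratios of 0.30 and 1.29, of which the first turned to -0.21 with no limit on Cd5l and Lyz2. Of 25 homeostatic genes, 0 were higher and 11 and 14 were lower (medians -0.56 and -0.61), among them Selplg, a selectin ligand, at 503.4 against 1020 CPM and 672.5 against 1498 CPM. The 4 identity genes, which the rule reads, had log2 ratios of -0.69 and -0.71 for Sall1, -0.99 and -0.91 for Siglech, -1.15 and -1.27 for P2ry12, and -1.16 and -1.46 for Tmem119.

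Lysosomal and metabolic lists leaned higher. Of 30 cathepsins, cystatins and lysosomal proteins, 10 and 11 were higher and 1 lower in each library (medians 0.32 and 0.37). The protease Ctsd was 25014 against 14485 CPM in wild-type and 23782 against 12205 CPM in knockout-labelled cells, whereas Cst3, the secreted cystatin C, was the lower one, at log2 ratios of -0.91 and -0.87. Of 16 glycolysis and hypoxia genes, 8 and 11 were higher and 0 lower (medians 0.63 and 0.71), with Gapdh at 0.87 and 0.81 and the lactate exporter Slc16a3 at 0.84 and 0.86. Fatty acid and triglyceride handling had 4 of 15 higher and 2 lower in the wild-type library, and for the knockout label 8 of 17 up and 2 down (medians 0.38 and 0.51). Plin2, a lipid-droplet coat protein, was 270.4 against 132.3 CPM and 137.4 against 44.9 CPM. Cholesterol synthesis and efflux had 2 of 13 and 4 of 12 higher and 0 lower (medians 0.14 and 0.38).

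Signalling lists were mixed. Of 20 cytokines and chemokines, 7 and 9 were higher and 1 and 2 lower (medians 0.08 and 0.27). Tnf was 665.0 against 316.2 CPM and 803.8 against 331.6 CPM, the neutrophil attractant Cxcl2 was 1006 against 422.8 CPM and 912.0 against 340.6 CPM, and Ccl7 had log2 ratios of -0.62 and -2.04. Growth factors and vascular remodelling had 7 of 17 higher and 2 lower, and 7 of 15 higher and 0 lower (medians 0.31 and 0.52). Mmp12, a matrix protease, had 3.34 CPM in wild-type members against 20.3 CPM. In the knockout-labelled library it had 11.9 against 0.215 CPM, both below the limit of 20 CPM, so it was not considered there. Colony-stimulating factor and Trem2 signalling had 2 and 4 of 16 higher and 2 and 2 lower (medians -0.22 and -0.10), with Csf1r, the receptor of Csf1, at 1231 against 1872 CPM and 1538 against 2196 CPM. Phagocytosis and complement had 3 of 17 and 3 of 16 higher and 0 lower (medians 0.14 and 0.10). In the IL-6 family list, 0 of 9 and 1 of 12 were higher and 1 and 3 lower (medians -0.40 and -0.28). Il6ra, the specific IL-6 receptor chain, was 75.1 against 143.8 CPM and 69.9 against 170.5 CPM, and Il6st, the shared signal-transducing chain gp130, had log2 ratios of -0.53 and -0.48. Stat3 and its feedback target Socs3 had -0.40 and -0.38, and -0.45 and -0.34.

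Antigen presentation and response lists were near or below the median. MHC class II had 4 and 2 of 9 lower and 0 higher (medians -0.43 and -0.38), MHC class I 1 and 0 of 14 lower and 0 higher (medians -0.08 and 0.02). The interferon response, of which 6 genes are limited by the rule, had 1 and 0 of its other 18 lower and 0 higher (medians -0.08 and -0.15). Of the dissociation-responsive genes, which record stress during tissue processing, 5 of 23 and 5 of 22 were lower and 0 higher (medians -0.37 and -0.33), with the heat-shock gene Hspa1a at log2 ratios of -0.90 and -0.95. Of 7 cell cycle genes 1 was higher in each library and 0 lower (medians 0.17 and 0.25), after the rule had taken out cycling cells. The lower dissociation-responsive genes stood beside the other ratios of members, and their part in these was not tested.

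**Figure D4:**
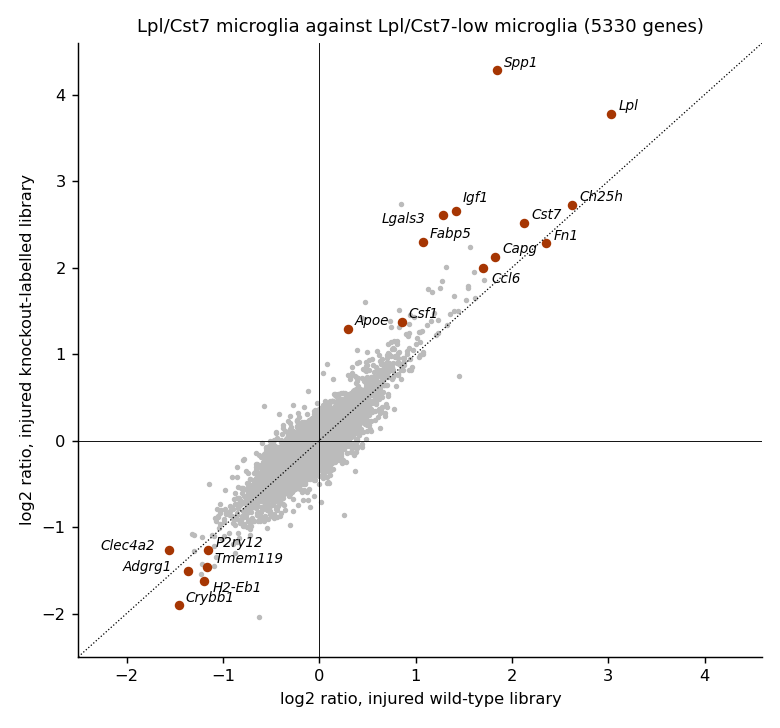
Log2 ratio of members over Lpl/Cst7-low microglia in the injured wild-type (horizontal) and injured knockout-labelled library (vertical), 1 point per gene for 5330 genes, with a dotted line of equality and named genes in colour. Spp1 (1.84 and 4.28), Igf1, Lgals3 and Fabp5 lie far above the line, Ch25h (2.62 and 2.73) and Fn1 close to it, and Crybb1 and Adgrg1 among the lowest.

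The comparison between genotype labels asked whether members of the injured libraries differed where the label reads IL-6 knockout. The rule does not read the label. In knockout-labelled members 8 of 5297 genes lay down by 2-fold or more (0.151%) and 0 lay up (0%). At 1.5-fold, 34 lay down (0.642%) and 26 up (0.491%). With 1 mouse a group no test was run. The median log2 ratio of all genes was 0.04.

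The 8 lower genes were led by Apoc1, an apolipoprotein gene of the Apoe cluster, at 392 UMIs in 71 of 236 wild-type members (130.9 CPM, 118.2 to 144.5) and 115 UMIs in 49 of 284 knockout-labelled members (30.3 CPM, 25.0 to 36.4). Its ratio was 0.232 (0.187 to 0.286). Pf4, encoding platelet factor 4 and a marker of border-associated macrophages, was 42.7 CPM (59 of 236 members) against 8.44 CPM (23 of 284), a ratio of 0.198 (0.130 to 0.293). Folr2, a folate receptor of border-associated and other tissue macrophages, was 52.4 against 17.9 CPM, a ratio of 0.342 (0.254 to 0.458). Pf4 and Folr2 made up most of the summed border-associated macrophage markers given above, and the part of such RNA in the other differences was not tested. Wfdc17 was 63.8 against 20.6 CPM (ratio 0.323, 0.245 to 0.422), but endothelial cells held 163.2 and 1.43 CPM. Ctla2a was 113.8 against 45.9 CPM (ratio 0.403, 0.334 to 0.485), with 1399 and 1145 CPM in endothelial cells. Gpx3, a secreted glutathione peroxidase, was 21.7 against 5.27 CPM, Nr4a3, an immediate early nuclear receptor, 45.4 against 17.1 CPM, and AI506816, 38.7 against 8.70 CPM. Endothelial cells held 26.2 and 5.72 CPM of Nr4a3, 16.1 and 10.0 of AI506816, and 10.1 and 8.58 of Pf4. They held 12.1 and 2.86 CPM of Apoc1, 4.03 and 0 of Folr2, and 2.02 and 1.43 of Gpx3. Knockout-labelled members were thus not above endothelial cells in Pf4, AI506816 and Ctla2a, and wild-type members were not in Wfdc17 and Ctla2a.

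Part of this difference was shared by Lpl/Cst7-low microglia. With the knockout label, 18 of 5451 genes lay down by 2-fold or more there (0.33%) and 3 lay up (0.055%), namely Nnat, Rarres2 and Vtn; at 1.5-fold 43 lay down (0.789%) and 9 up (0.165%). Between the labels, 4 of 5036 genes were lower in both kinds of cells (0.0794%): Apoc1, Folr2, Wfdc17 and Ctla2a. Apoc1 was 79.9 against 12.9 CPM in Lpl/Cst7-low microglia. Pf4 was 34.1 against 23.5 CPM there, a log2 ratio of -0.40 beside -1.52 in members. Leaving out the limit on Cd5l and Lyz2 gave 2 higher and 30 lower genes in the comparison of members. With cells thinned to 3000 UMIs, which leaves fewer UMIs a gene, Apoc1 was the 1 gene of the 8 still called, as it was with a prior of 50 CPM. Among members at 20 per 10000, Pf4, Wfdc17 and AI506816 were still called, beside 9 higher genes. Cd74, H2-Aa, H2-Ab1 and H2-Eb1, all of the MHC class II list, were among these higher genes.

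Between the labels, Spp1 differed less in members than in Lpl/Cst7-low microglia. It was 4105 CPM in wild-type and 2150 CPM in knockout-labelled members, a ratio of 0.524 (0.509 to 0.539) and a log2 ratio of -0.93, which is not called at 2-fold. The call depended on the choice of cells: the log2 ratio of Spp1 was -1.20 with at least 3 of 4 identity genes and -2.07 with no limit on Cd5l and Lyz2, both called, and -0.76 among members at 20 per 10000. In Lpl/Cst7-low microglia the values were 1136 and 101.3 CPM, a ratio of 0.0892 (0.0843 to 0.0943). There 1 of the 1164 wild-type cells held 2488 of the 10819 Spp1 UMIs. The median Lpl/Cst7-low cell held 1.75 (wild type) and 0 (knockout-labelled) UMIs per 10000, so the summed values are not those of a typical cell. Per member, the Spp1 level ran from 0 through a median of 4.54 to 1025 UMIs per 10000 with the wild-type label and from 0 through 1.52 to 427.3 with the knockout label. Thinned, Spp1 was detected in 68.1% (61.6 to 74.2) of wild-type and 48.5% (42.3 to 54.7) of knockout-labelled members, and at 50.9% and 5.10% in endothelial cells. Summed endothelial Spp1 was 290.2 and 47.2 CPM, so it was also lower with the knockout label, and the part of free RNA in the difference was not tested.

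The gap in summed Spp1 narrowed as Lpl and Cst7 went up. Below 10 per 10000, 1 wild-type cell held 2488 of the 10819 Spp1 UMIs. The folds were not computed without this cell, so its part in the steps between bands was not tested. Among cells with neither gene, wild-type microglia held 661.5 CPM and knockout-labelled ones 34.6 CPM, a fold of 19.1 (16.3 to 22.6). Endothelial cells held 290.2 and 47.2 CPM, so the knockout-labelled level in this band was below that of endothelial cells. The part of free RNA in these folds was not tested. The fold was 10.5 above 0 and under 5 per 10000, 7.08 (6.58 to 7.63) from 5 to 10, 4.17 (3.92 to 4.43) from 10 to 20, and 1.70 (1.64 to 1.76) at 20 and over, where the levels were 6697 and 3943 CPM. Igf1 had folds of 2.35, 5.93, 2.55, 2.10 and 1.09 over the same bands, and Apoe 1.82, 3.35, 2.66, 1.88 and 1.27, so both were largest in the second band and smallest in the last. P2ry12 was 398.2 and 445.1 CPM in the last band. Ch25h and Csf1 had wild-type over knockout-labelled folds of 1.28 (1.08 to 1.51) and 1.04 (0.914 to 1.18) in that band.

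Apoe, counted in 236 of 236 and 282 of 284 members, was 34736 CPM with the wild-type label and 22254 CPM with the knockout label, a ratio of 0.641 (0.635 to 0.647). Per member it ran from 4.25 through a median of 232.9 to 1380 UMIs per 10000, and from 0 through 132.8 to 1199. In Lpl/Cst7-low microglia it was 28291 and 9075 CPM, and in endothelial cells 7785 and 1953 CPM. Lyz2 was 1802 and 45.7 CPM in endothelial cells of the same libraries and 2127 and 1794 CPM in members, and the part of free RNA was again not tested. Lpl and Cst7 themselves were slightly higher in knockout-labelled members, with log2 ratios of 0.16 and 0.18, and Trem2, the lipid-sensing receptor, was 3249 and 3673 CPM.

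**Figure D5:**
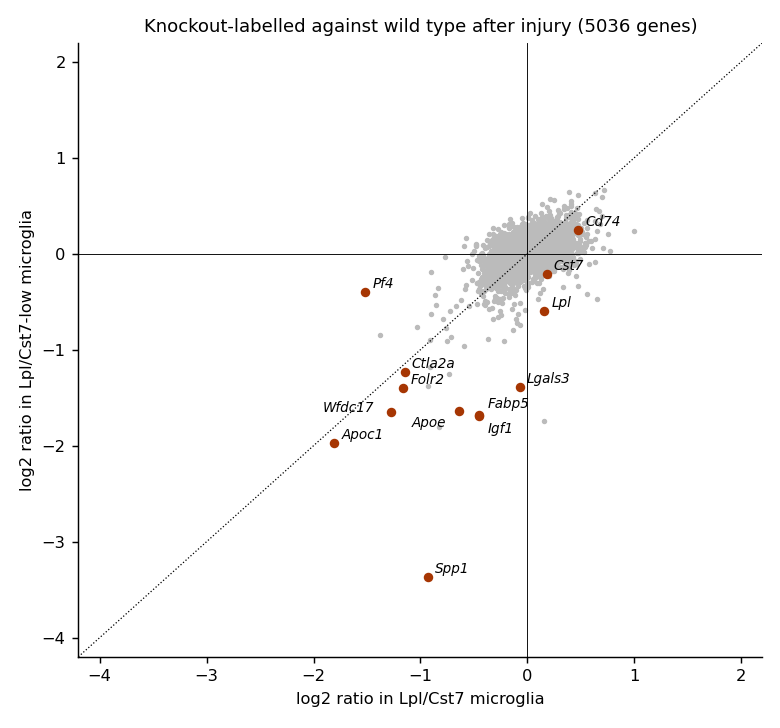
Log2 ratio of the knockout-labelled over the wild-type injured library in members (horizontal) and in Lpl/Cst7-low microglia (vertical), 1 point per gene for 5036 genes, with a dotted line of equality. Spp1 (-0.93 and -3.36), Apoe, Igf1, Fabp5 and Lgals3 lie well below the line, Apoc1, Wfdc17, Folr2 and Ctla2a near it at the lower left, and Pf4 (-1.52 and -0.40) above it.

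The lists read against the same background at 1.5-fold. Cholesterol synthesis and efflux had 4 of 13 genes lower in knockout-labelled members and 0 higher (median -0.25), the 4 being Apoc1, Apoc2 (81.1 against 41.4 CPM), Apoc4 (21.4 against 7.91 CPM) and Apoe. Growth factors and vascular remodelling had 3 of 15 lower and 0 higher (median 0.00): Fn1, Spp1 and Anxa2, a membrane-binding annexin at 59.8 against 30.3 CPM. Late disease-associated genes had 2 of 29 higher, Itgax, an integrin chain, at 44.4 and 78.9 CPM and Axl at 108.2 and 173.8 CPM, and 1 lower, Spp1 (median 0.05). Of the early genes 1 of 8, Apoe, was lower and 0 higher (median -0.03). In the fatty acid list, 1 of 16, Plin2, was lower at 270.4 and 137.4 CPM (median 0.06), and in the cytokine list 1 of 19, Ccl2, at 249.4 and 142.4 CPM (median -0.06). MHC class II had 1 of 9 higher, H2-Oa at 27.4 and 49.6 CPM (median 0.36), phagocytosis and complement 1 of 17 higher, Axl (median -0.01), and the IL-6 family 1 of 10 higher, Il6 itself (median 0.14). Interferon response had 1 of 17 lower, Ifi27l2a at 696.0 and 460.2 CPM (median -0.16).

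The remaining lists had 0 genes past 1.5-fold in either direction. These were homeostatic microglia (25 genes, median 0.08), lysosomal proteins (30, 0.07), colony-stimulating factor and Trem2 signalling (15, 0.18), MHC class I (14, 0.18), glycolysis and hypoxia (16, 0.06), dissociation-responsive genes (22, -0.01) and cell cycle (7, -0.01). Il6ra, Il6st, Stat3 and Socs3 had log2 ratios of -0.09, 0.14, -0.07 and 0.18.

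Members were not uniform within a library. Over 1551 genes with enough UMIs, the spread between members beyond counting noise, as a coefficient of variation, had a median of 0.341 in the injured wild-type and 0.349 in the injured knockout-labelled library. Ranked by the lower of the 2 libraries' values, Gpnmb, a lysosome-linked glycoprotein, came first with 3.52 and 6.04; it was found in 60 of 236 and 28 of 284 members, and in the knockout-labelled library 15 cells held 97.0% of its UMIs. Slc7a11, the cystine transporter, had 3.03 and 2.61, and Spp1 2.58 and 2.48. The 12 wild-type members with the most Spp1 held 59.9% of its UMIs and the 15 such knockout-labelled members 61.9%, whereas the median member held 5 and 2 UMIs. Without these cells, an alternative added after seeing the data, the log2 ratio of Spp1 between the labels was -1.002 and 9 genes were at least 2-fold lower, Spp1 and Gdf15 among them and Gpx3 no longer.

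Single cells decided some values. In 1 wild-type member Hmox1, the heme-degrading enzyme, held 528 of the 961 UMIs counted over all 236 (54.9%), and another gene, Cd74, the MHC class II chaperone, had 189 of 462 UMIs (40.9%) in 1 wild-type member. In the knockout-labelled members the highest cells held 22.7% and 6.99% of these genes' UMIs. Cxcl10, one of the interferon-induced genes of the rule, still varied with coefficients of 2.39 and 2.29 among members, which may hold up to 3 of the 6 genes.

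Lpl/Cst7-high cells kept out for Cd5l had other levels than members. In the injured wild-type library these 119 cells held 33857 CPM of Spp1 and 62462 CPM of Apoe, beside 4105 and 34736 CPM in members, and 247.7 CPM of P2ry12 beside 478.7. The 30 such cells of the injured knockout-labelled library held 6292 CPM of Spp1 and 41683 CPM of Apoe. Lpl was 1191 and 945.8 CPM in them, beside 1126 and 1258 CPM in members. The 51 and 47 Lpl/Cst7-high cells kept out for interferon genes held 3046 and 861.1 CPM of Spp1. Those kept out for cycling genes, 23 in each library, held 26565 and 2792 CPM. Whether these cells also exceeded the Lyz2 limit, and the part of single cells in their sums, was not tested.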

How the data were processed

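The authors deposited raw UMI counts per gene and barcode for 4 libraries, and the submitters' processing notes name Cell Ranger 6.0.1 and mm10. The sources used here name no annotation release. Of 16040 barcodes, 8018 reached 500 genes and 1000 UMIs with mitochondrial UMIs not above 10%. Members were then taken by the rule in the opening, and Lpl/Cst7-low microglia failed only its Lpl and Cst7 limit. The members and the gene lists were chosen with earlier results of these data known. No doublets were removed; leaving out the highest Scrublet scores (0.8% per 1000 barcodes) is an alternative. Endothelial cells had at least 4 of 6 endothelial markers and at most 1 identity gene.

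Counts were summed per library and kind of cell and scaled to CPM. Intervals at 95% are exact (Poisson for CPM, conditional binomial for ratios, Clopper-Pearson for shares) and cover counting error only, since UMIs clump within cells and mice are not replicated. Log2 ratios use a prior of 10 CPM. Named genes were the rule and marker genes, the 12 most extreme genes called in both injured libraries in each direction, those called between labels, up to 4 per list, and a fixed set around Il6, Apoe, Spp1, Igf1 and Trem2. Genes named for their spread between cells, for the bands of Lpl and Cst7, or as called in an alternative, were chosen after their values were seen, as were Axl and Tnf in the description within libraries and Nnat, Rarres2 and Vtn. Of 421 listed genes in 18 pathway and 14 marker lists, 4 were not among the symbols used. Members of injured and sham libraries were not compared, with 4 members in each sham library. Of the 12 leading lower genes 1 is not reported here. The comparison was run on simulated data that held counting noise only, so this run does not cover the spread between cells or mice. Tools were Python 3.11.15, numpy 2.4.6, scipy 1.17.1, pandas 2.3.3, scanpy 1.11.5 and matplotlib 3.10.9.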

Additional observations from a re-analysis of the deposited data

Results flagged for a closer look

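Cells meeting the rule were also found among barcodes that failed the quality limits and enter no comparison. They were 1.61% of 1735 failed barcodes in the injured wild-type library (28 cells) and 2.24% of 1564 in the injured knockout-labelled library (35 cells), above 0.262% (9 of 3433) and 0.155% (2 of 1290) in the sham libraries. In the injured libraries 22 of the 28 and 26 of the 35 were over the mitochondrial limit.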

How the results depend on the processing

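No paired analysis was possible because each group holds 1 library, and no replicate could be left out. Shares of analysed cells (injured wild-type, injured knockout-labelled) were 15.4% and 18.5% at 5 per 10000, 2.60% and 4.59% at 20, 6.74% and 9.33% with both genes required, 6.51% and 9.17% with 3 identity genes and 10.1% and 12.5% when cells were thinned before the rule, so the knockout-labelled share was the larger in each. Without the limits on Cd5l and Lyz2 the shares were 11.1% and 11.4%. Microglia by identity genes were 74.6% and 84.8% of the analysed cells, so the order of these shares also depends on the total. In the wild-type sham library the share was 0% at 20 per 10000 and 0.101% with both genes. Detection of both genes moved from 61.9% and 63.5% thinned to 85.6% and 86.6% at full depth.

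Against Lpl/Cst7-low microglia, higher genes (wild-type, knockout-labelled, both) were 124 and 61 (knockout-labelled, both) at a prior of 1 CPM, 16, 25 and 13 at 50 CPM, and 75, 132 and 61 at 20 per 10000. Lower genes were 79, 103 and 44; 4, 6 and 3; and 106, 114 and 52. Median-of-ratios scaling gave 24 lower in the wild-type library, and thinning 74 and 74. With no limit on Cd5l and Lyz2, 23 were higher in the wild-type library and 20 in both, and 8 lower in both. H2-Eb1 turned to 0.46 with 3 identity genes, and Lgals3 and Fabp5 to -0.080 and -0.72 with no limit on Cd5l and Lyz2, all in the wild-type library. Between the labels, higher and lower genes were 7 and 16 at a prior of 1 CPM, 0 and 1 at 50 CPM, 9 and 3 at 20 per 10000, 5 and 3 thinned, and 2 and 30 with no limit on Cd5l and Lyz2; 2 were higher with cells weighted equally and 1 without doublets. The cause was not tested. Alternatives added after seeing the data were those without shared barcodes, without the Cd5l and Lyz2 limits for ratios, and without the members richest in Spp1; removing shared barcodes left every count of called genes as it was.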
